A study of Mus musculus with 16 samples.

Results

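The comparison is that of 4 libraries of ventricular tissue lacking Atf4 exon 2 in heart muscle cells with their 4 control libraries, as labelled, taken from mouse embryos at E11.5, a mid-gestation stage. The members are the 8 libraries, of 16 in the series, whose titles name the exon 2 conditional knockout (cKO) line, and all 8 carry the batch label 2. In the cKO, Cre recombinase from the Xmlc2-Cre transgene, which is driven in heart muscle cells, removes exon 2 of Atf4, which is flanked by loxP sites. Other cells of the ventricle are not targeted by this driver, so a part of the RNA in each library comes from cells that keep the gene. The genotype label gives the C57BL/6 background as wild type for control and cKO alike, and whether the controls carry the floxed allele or the transgene is not stated. The other 8 libraries are a second line with exons 2 and 3 flanked, labelled batch 1, and they are used here only where the effects of the lines are compared. The series asks what Atf4 does in the developing heart.

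ATF4 is a basic leucine zipper transcription factor. Its protein is made when the kinases of the integrated stress response phosphorylate the initiation factor eIF2, a state brought on by amino acid shortage, misfolded protein, viral RNA or lack of heme. It raises genes for amino acid uptake and synthesis, for the charging of tRNAs, for the mitochondrial branch of folate one-carbon metabolism and for the negative feedback of the response. In heart muscle the same program is known from mitochondrial disease models.

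The rows held covered chromosomes 1 and 10 and chromosome 11 up to position 106501211, 5921 genes in all, and Atf4 itself was not analysed here, so the labels were not checked against the targeted gene. In the 8 libraries between 4531 and 4873 of these genes had a value above 0, and their TPM values (transcripts scaled to a fixed total per library) summed to between 15.7% and 16.8% of a library. Libraries of a group correlated with Pearson's r between 0.988 and 0.992 in the controls and between 0.982 and 0.992 in the cKO, across genes. On the first principal component, which held 25.5% of the variance, cKO replicate 1 lay apart from the other 7 libraries, and without it the same 2 genes passed the test described next. TPM keeps no depth, so the reads behind each value are unknown. Nothing in the labels says that the libraries came from separate embryos or litters, so p-values measure the spread between these samples. Tests were run with limma on log2(TPM + 1) over 2620 genes with a mean of at least 1 TPM. A called gene has an adjusted p under 0.05. In bulk tissue, fewer cells of a type and less RNA per cell cannot be told apart.

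The comparison asks what the loss of Atf4 exon 2 does to transcript levels. Of 2620 genes, 2 were called, 0.0763% of those tested, and both were higher in the cKO. These were Aldh1l2 and Shmt2, enzymes of mitochondrial one-carbon metabolism. No gene was called lower. At an unadjusted limma p under 0.05 there were 84 genes (3.21%), of which 32 were higher (1.22%) and 52 lower (1.98%). The 4 cKO libraries lay wholly above or wholly below the 4 controls for 48 genes (1.83%), 18 above (0.687%) and 30 below (1.15%). Over all genes tested the median log2 difference, cKO minus control, was -0.012, with 1131 genes higher and 1489 lower. That lean depended on the scaling and on single libraries: 1298 genes were higher under quantile normalisation, with a median of -0.00038, and 1200 after median centring, and without cKO replicate 4 the median was 0.0026.

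**Figure D1:**
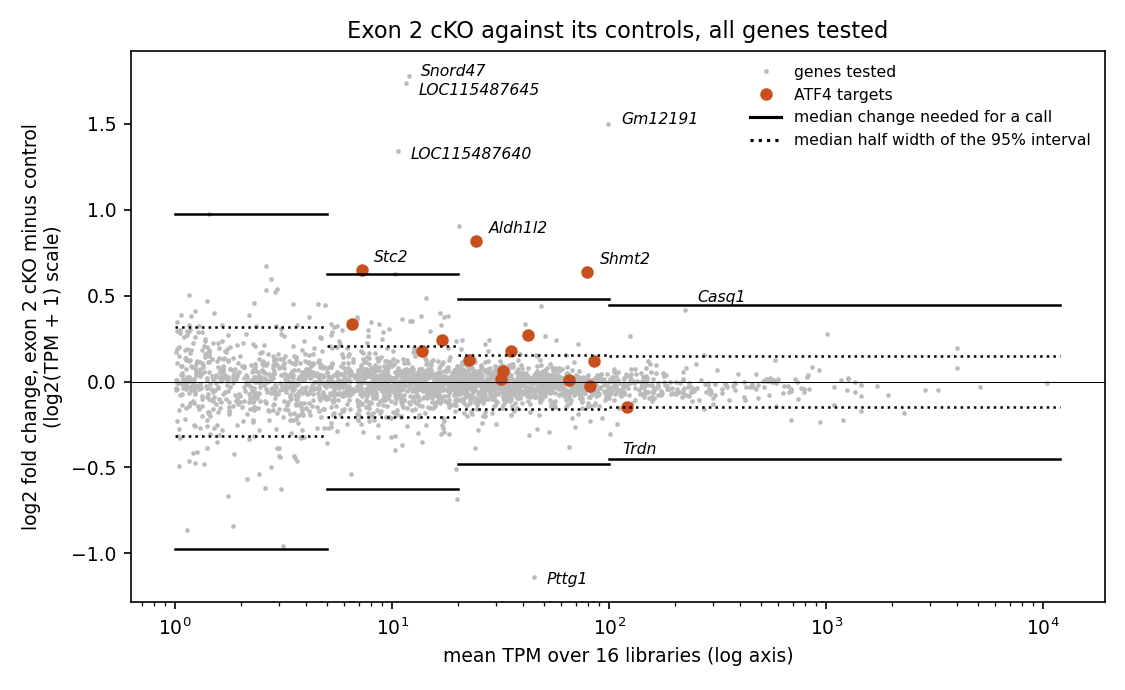
Log2 difference of cKO minus control (vertical axis, log2(TPM + 1) scale) against the mean TPM over 16 libraries (horizontal log axis) for the 2620 genes tested, 1 point per gene, with ATF4 targets in orange. Solid lines mark the median change needed for a call in each range of level and dotted lines the median reach of the 95% interval. Both narrow toward high TPM, from 0.98 to 0.45 for a call, and Aldh1l2 and Shmt2 lie outside them, as do some uncalled genes with larger errors.

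Of 55 genes on a list of ATF4 targets, 15 lay on the rows held and all 15 were tested. In the cKO 13 of the 15 were higher, with a median log2 difference of 0.18 beside -0.012 for all genes. There were 2 genes called (0.0763% over all genes). At an unadjusted p under 0.05, 7 were higher (1.22% over all genes) and 1 was lower (1.98%). The 4 cKO libraries lay above all 4 controls for 4 of the 15 (0.687% over all genes). The median stayed between 0.12 and 0.21 when single libraries were left out. The list was drawn up with results of these data known, so these counts are a description.

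Aldh1l2, the mitochondrial dehydrogenase that turns 10-formyl-tetrahydrofolate into tetrahydrofolate with the production of NADPH, had the larger change. It stood at 24.3, 21.8, 26.5 and 24.1 TPM in the controls and at 41.6, 43.8, 45.8 and 41.8 TPM in the cKO. Every cKO library was above every control. The mean rose 1.79-fold, from 24.2 ± 1.89 to 43.3 ± 1.98 TPM (SD, n = 4 in each group). On the log2 scale the difference was 0.82 with a standard error of 0.068 and a 95% interval of 0.67 to 0.97 (limma adjusted p = 0.000421). The gene lies on the minus strand at chr10:83487447-83534146, and Gm51778, which overlaps it on the other strand by 26390 bases, stayed between 0 and 0.0769 TPM in all 8 libraries.

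Shmt2, the mitochondrial serine hydroxymethyltransferase that passes a carbon unit of serine to tetrahydrofolate and leaves glycine, stood at 70.4, 71.3, 75.8 and 68.0 TPM in the controls. It stood at 113, 118, 119 and 97.0 TPM in the cKO, again with no overlap. The mean rose 1.57-fold, from 71.4 ± 3.27 to 112 ± 10.1 TPM (SD, n = 4 in each group). The log2 difference was 0.64 (SE 0.071, 95% interval 0.48 to 0.79, limma adjusted p = 0.00359). The gene lies on the minus strand at chr10:127517123-127522444. Ndufa4l2, which overlaps its end by 32 bases on the other strand, had a mean of 10.8 ± 4.21 TPM in the controls and 9.36 ± 3.09 TPM in the cKO.

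In the folate one-carbon list, 7 of 25 genes were held and tested. Beside Aldh1l2 and Shmt2, the other 5 differed by between -0.12 and 0.13. Mthfd1l, the mitochondrial formate-producing enzyme of a later step than Shmt2, differed by 0.13 with an interval of -0.04 to 0.30. Shmt1, the cytosolic counterpart of Shmt2, differed by -0.02, with an interval of -0.17 to 0.14. Atic, of purine synthesis, differed by -0.03, Ftcd by -0.12 and Mat2b, a subunit of the enzyme for S-adenosylmethionine, by -0.08. With 3 of 7 higher, the median of the list was -0.018, beside -0.012 for all genes.

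Among the transporters, Slc1a4, a neutral amino acid carrier for serine, alanine and cysteine, stood at 7.45, 6.09, 7.34 and 6.41 TPM in the controls and at 8.85, 8.98, 9.32 and 8.19 TPM in the cKO. The groups did not overlap, and the log2 difference was 0.33 (SE 0.088, 95% interval 0.14 to 0.53, limma adjusted p = 0.703). Slc1a4 lies on the minus strand at chr11:20302180-20332713.

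Among the genes of tRNA charging and export, Mars1, the cytosolic methionyl-tRNA synthetase, stood at 49.1, 40.8, 38.9 and 41.3 TPM in the controls and at 54.2, 46.9, 53.9 and 50.6 TPM in the cKO. The log2 difference was 0.27, with an interval of 0.09 to 0.44 and a limma adjusted p of 0.876. Mars1 shares 71 bases with Ddit3 on the other strand, so reads there cannot be told apart without strand. Xpot, the exportin that carries tRNA out of the nucleus, had 39.7, 34.7, 37.3 and 37.4 TPM in the controls and 41.5, 43.8, 44.9 and 39.0 TPM in the cKO. Its log2 difference was 0.18, with an interval of 0.04 to 0.32. The synthetases Eprs (glutamate and proline), Dars (aspartate) and Rars (arginine) differed by 0.12, 0.01 and -0.03, and the intervals of all 3 included 0. None of these genes was called. Over the wider list of tRNA synthetases and export, 9 genes were tested, 6 were higher, 0 were called, the median was 0.04, and the 95% intervals of all 9 stayed within a log2 difference of 0.5 either way.

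Of the secreted and stress-linked targets, Stc2, a secreted glycoprotein of calcium and phosphate balance, was nearest to the threshold. It had 5.63, 6.22, 8.35 and 6.39 TPM in the controls and 10.7, 12.0, 11.1 and 9.82 TPM in the cKO. The means were 6.65 ± 1.18 and 10.9 ± 0.894 TPM (SD, n = 4 in each group). The groups did not overlap, but the log2 difference of 0.65 (SE 0.11, 95% interval 0.40 to 0.90) did not pass (limma adjusted p = 0.0951). It passed in the fit over all 16 libraries and without control replicate 3, among 21 alternatives in which its adjusted p ranged from 0.0095 to 0.407. Stc2 lies on the minus strand at chr11:31359441-31370061.

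Atf3, a stress-induced transcription factor of the same family, had 15.5, 15.1, 18.0 and 16.9 TPM in the controls and 16.9, 19.3, 22.7 and 19.5 TPM in the cKO, a log2 difference of 0.24 with a 95% interval of 0.04 to 0.45. The lowest cKO library lay among the controls. Ddit3, which encodes the apoptosis-linked factor CHOP, differed by 0.18, and its interval of -0.19 to 0.54 includes 0. Ddit4, an inhibitor of mTORC1 signalling, differed by 0.06, with an interval of -0.17 to 0.30. Ppp1r15b, a regulatory subunit of the phosphatase that reverses eIF2 phosphorylation, differed by 0.01, with an interval of -0.13 to 0.16. Sqstm1, the autophagy receptor p62, was the one member lower at an unadjusted p under 0.05, by -0.15, and its adjusted p was 0.999.

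**Figure D2:**
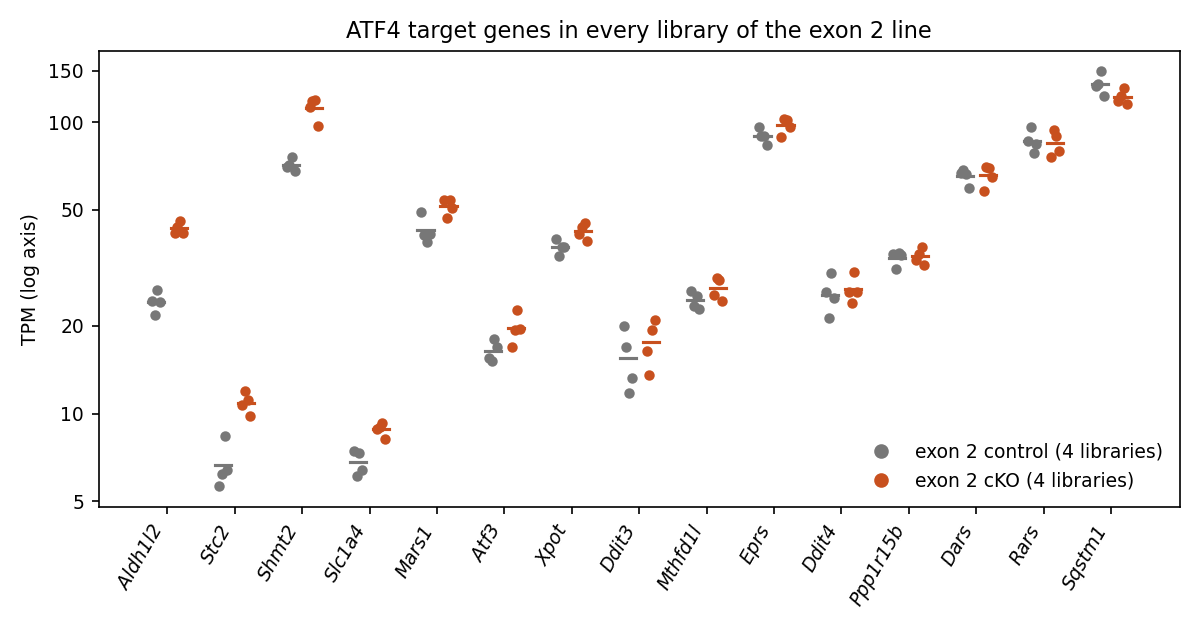
TPM of the ATF4 targets held, on a log axis, in the 4 control and the 4 cKO libraries of the exon 2 line, 1 point per library. Short lines mark group means. The groups of Aldh1l2, Stc2, Shmt2 and Slc1a4 do not overlap, and those of the other 11 genes do.

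The promoters of 4 members are shown because they are the targets with the largest difference for which RefSeq holds a window or, for Atf3, because it holds the motif searched. RefSeq windows of 300 bases on build GRCm38.p6, most of it upstream of the start, were found for 12 of the 15 members, and none was matched for Aldh1l2, Rars and Ppp1r15b. The motif was the C/EBP-ATF element TGATGNAA, on both strands, and capitals mark a match. Each sequence runs 5′ to 3′ on the gene's strand up to the start, or 4 bases past it for Slc1a4.
Shmt2, chr10:127522445-127522594, minus strand: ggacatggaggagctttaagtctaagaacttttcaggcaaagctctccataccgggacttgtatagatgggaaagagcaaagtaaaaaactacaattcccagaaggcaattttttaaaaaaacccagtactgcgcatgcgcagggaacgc
Stc2, chr11:31370062-31370211, minus strand: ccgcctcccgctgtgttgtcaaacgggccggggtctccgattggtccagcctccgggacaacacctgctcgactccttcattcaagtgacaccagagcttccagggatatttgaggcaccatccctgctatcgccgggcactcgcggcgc
Slc1a4, chr11:20332710-20332863, minus strand: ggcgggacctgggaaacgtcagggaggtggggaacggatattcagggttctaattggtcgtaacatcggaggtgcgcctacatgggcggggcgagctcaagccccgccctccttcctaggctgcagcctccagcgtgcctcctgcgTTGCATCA
Atf3, chr1:191183334-191183483, minus strand: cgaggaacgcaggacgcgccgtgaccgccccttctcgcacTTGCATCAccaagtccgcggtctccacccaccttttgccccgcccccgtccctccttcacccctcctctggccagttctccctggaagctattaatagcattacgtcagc
The motif was found in the windows of Slc1a4, across the start itself, and of Atf3, from 110 to 103 bases before it, both matches being on the other strand. It was found in 3.97% of 32851 windows and in 2.17% of 2355 windows of tested genes. The palindrome TGACGTCA was in the window of 0 of the 12 members, in 1.79% of all windows and in 3.57% of those of tested genes. Absence says only that these letters are not in this window.

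Outside that list, the genes of calcium handling were held with 10 rows, of which 9 were tested and 0 called. Casq1, calsequestrin 1, a calcium-binding protein of the sarcoplasmic reticulum best known from skeletal muscle, was next to the threshold. It had 227, 212, 201 and 196 TPM in the controls and 274, 295, 296 and 251 TPM in the cKO, with no overlap, a log2 difference of 0.41 (SE 0.069, 95% interval 0.26 to 0.57) and a limma adjusted p of 0.0905. It passed in 4 of 21 alternatives, namely quantile normalisation, one fit over 16 libraries, array weights and leaving out cKO replicate 4. Gm17224 overlaps it by 3793 bases on the other strand.

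Trdn, triadin, which anchors calsequestrin near the ryanodine receptor, had 119, 109, 123 and 113 TPM in the controls and 94.3, 95.3, 85.9 and 98.8 TPM in the cKO. It too had no overlap, with a log2 difference of -0.30 (SE 0.060, interval -0.44 to -0.17) and a limma adjusted p of 0.228. Other rows overlap Trdn on both strands. Pln, phospholamban, the inhibitor of the calcium pump, differed by -0.07. The 9 tested genes had a median of -0.04, with 2 higher.

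Among the other genes with the highest test statistics, Ddr2, a collagen receptor of fibroblasts, had 2.74, 2.19, 4.15 and 2.64 TPM in the controls and 5.10, 3.91, 4.57 and 6.03 TPM in the cKO, a log2 difference of 0.60. The rows 2900009J06Rik, Gm18874 and Gm22772 differed by 0.67, 0.54 and 0.98, and none was called.

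Among those with the lowest statistics, Rnasek, which encodes a protein of the vacuolar proton pump, had 79.6, 87.2, 82.9 and 83.1 TPM in the controls and 75.8, 68.4, 67.7 and 71.0 TPM in the cKO. The groups did not overlap, and the log2 difference was -0.23 (limma adjusted p = 0.659). Ppp1r1b, the phosphatase inhibitor DARPP-32, differed by -0.30, Zmiz2 by -0.17 and Ramp3, a co-receptor for adrenomedullin, by -0.46, each without overlap. Ntn1, the guidance cue netrin 1, had 84.1, 79.3, 91.9 and 87.2 TPM in the controls and 75.5, 71.9, 74.7 and 72.7 TPM in the cKO, a log2 difference of -0.21 with no overlap. Slc35d3 differed by -0.66 with overlap. Ankzf1 stood at 28.2, 28.2, 28.9 and 27.8 TPM in the controls and at 24.9, 23.9, 25.7 and 23.7 TPM in the cKO, a log2 difference of -0.20 with no overlap. None of these was called, and the limma adjusted p was 0.703 for Ddr2, Ntn1, Slc35d3 and Ankzf1 and 0.876 for Ramp3.

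How small a difference could have been seen was read from the fit. The median standard error was 0.0895 and the median residual SD 0.122 on the log2 scale, so a median 95% interval reached 0.198 to each side. With 2 genes called, the Benjamini-Hochberg cut-off lay at a limma p-value of 3.82e-05, and it shifts with the number of genes called. At that p-value the median gene needed an estimated log2 difference of 0.60, which is 1.52-fold. A true difference of 0.72, or 1.65-fold, was needed to reach it with a power of 80%. These folds and those that follow are of TPM + 1, so the fold of TPM itself was larger, most of all at low levels. The difference needed depended on the level. Genes of 1 to 5 TPM, 618 of them, needed 0.98 (1.97-fold), the 858 genes of 5 to 20 TPM needed 0.63 (1.54-fold), the 898 genes of 20 to 100 TPM needed 0.48 (1.40-fold), and the 246 genes above 100 TPM needed 0.45 (1.36-fold).

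For 2248 of 2620 genes (85.8%) the whole 95% interval lay within a log2 difference of 0.5 either way, and for 1252 (47.8%) within 0.25. Within 1 lay 2571 genes (98.1%), and 1920 (73.3%) also did so with intervals widened for all 2620 tests. Values beyond a bound lie outside the intervals of the genes counted there. For genes of 1 to 5 TPM the share within 0.5 was 65.2%, and for genes of 20 to 100 TPM it was 96.0%. Differences of 0.5 or more in either direction were estimated for 28 genes (1.07%), 16 higher and 12 lower, and of 1 or more for 5 (Pttg1, Gm12191, Snord47, LOC115487645 and LOC115487640), none of them called. The Gm12191 row, which lies within Cnot6, had 7.79, 54.2, 18.7 and 114 TPM in the controls and 116, 88.7, 91.2 and 72.4 TPM in the cKO. The groups overlap at the highest control, and the 95% interval of the log2 difference was 0.12 to 2.88.

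The genes of endoplasmic reticulum (ER) stress, the cell cycle, p53 and contraction held no called member. Of 15 ER stress genes tested, 0 were called and 0 passed an unadjusted p of 0.05, with 8 higher and a median of 0.01. Hsp90b1, the chaperone GRP94, stood at 735 ± 70.8 TPM in the controls and at 706 ± 33.6 TPM in the cKO (SD, n = 4 each). The intervals of 14 of the 15 lay within 0.5.

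The 20 cell cycle genes had a median of 0.004, with 11 higher, differences between -0.11 and 0.07, and no interval outside -0.29 to 0.27. Cdk4, the kinase of the G1 phase, stood at 509 ± 25.2 and 512 ± 37.3 TPM in control and cKO (SD, n = 4 each). The 17 p53 targets had a median of -0.018, with 8 higher, 0 called and all 17 intervals within 0.5. Ccng1, cyclin G1, stood at 122 ± 5.96 and 128 ± 15.8 TPM (SD, n = 4 each), with a log2 difference of 0.06. Its interval of -0.14 to 0.25 did not reach the 1.52 estimated in the exon 2-3 line, and the difference between the lines was -1.46 (limma adjusted p = 1.82e-07). The groups did not overlap for 3 of the 17 (1.15% over all genes), all lower in the cKO: Trp53i13 (-0.25), Perp (-0.15) and Steap3 (-0.14). Perp, a membrane protein of desmosomes and apoptosis, stood at 71.5, 75.3, 77.5 and 72.7 TPM in the controls and at 64.0, 63.5, 69.8 and 69.9 TPM in the cKO.

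Of 11 sarcomere genes, 9 were tested, 0 called, with 3 higher and a median of -0.03. Myl4, a myosin light chain of the embryonic heart, stood at 4736 ± 303 and 4627 ± 214 TPM (SD, n = 4 each), a log2 difference of -0.03. Tnni1, slow skeletal troponin I and the embryonic form in the heart, differed by -0.18 (interval -0.53 to 0.16), Tnnt2, cardiac troponin T, by 0.20 (interval -0.18 to 0.57) and Pfn1, the actin-binding profilin 1, by 0.27 (interval -0.22 to 0.77). These were the 3 of 9 genes whose interval held values beyond 0.5. Of 9 cardiac transcription factors tested, 2 were higher, the median was -0.04 and all 9 intervals lay within 0.5. Hand1, of the left ventricle, stood at 67.6 ± 7.1 and 63.8 ± 5.65 TPM (SD, n = 4 each), and Hey2, of the compact layer, differed by -0.03.

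The genes of energy metabolism held no called member. Of 17 genes of the respiratory chain, 14 were lower and 3 higher, with a median of -0.065 beside -0.012 for all genes, and 0 passed an unadjusted p of 0.05. Uqcrq, of complex III, differed by 0.12 and Atp5b, of the ATP synthase, by -0.05. Of 8 glycolysis genes tested, 7 were lower, with a median of -0.10, and Aldoc, an aldolase, differed by -0.22. Pgam2, the muscle phosphoglycerate mutase, stood at 459 ± 27.6 and 428 ± 13 TPM (SD, n = 4 each). Of 15 ribosomal protein genes, 10 were lower, with a median of -0.02 that turned to 0.019 under quantile normalisation. The intervals of 13 of these 15 lay within 0.5, and the widest bounds in the list were -0.64 and 0.56.

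**Figure D3:**
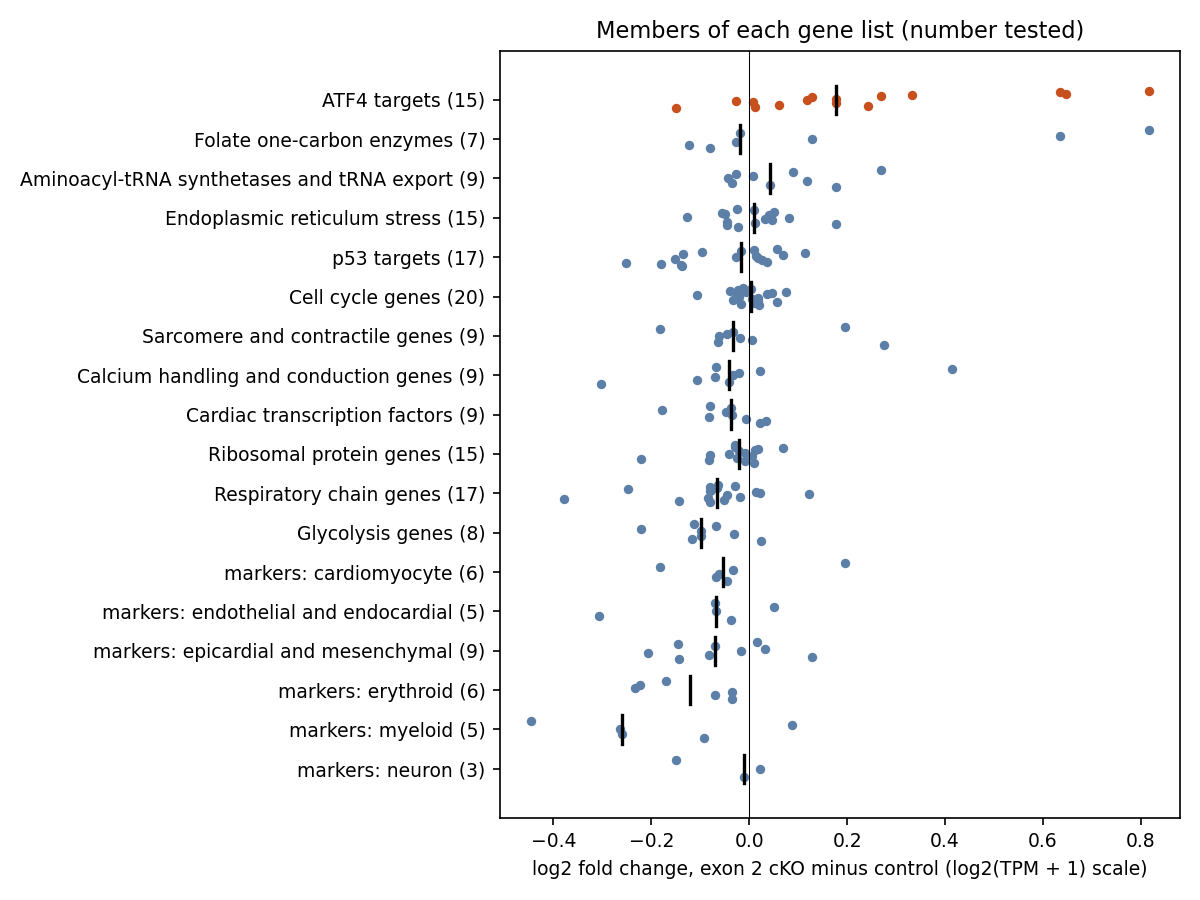
Log2 difference of cKO minus control (horizontal axis) for each tested gene of the lists, 1 point per gene and 1 row per list, with the list's median as a black bar. The ATF4 targets have a median of 0.18, and the medians of the other lists lie between -0.26 (myeloid markers) and 0.04 (tRNA synthetases).

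Markers of other cell types were summed in each library, as TPM. Cardiomyocyte markers (6 held) summed to 12595-14684 in the controls and to 12965-14044 in the cKO. Endothelial and endocardial markers (5 held) summed to 284-306 and 282-318, and epicardial and mesenchymal markers (10 held) to 1149-1374 and 1223-1425. Erythroid markers (7 held) summed to 2130-4714 and 2024-3744, which overlap. Myeloid markers (12 held, 6 under 1 TPM) summed to 88.4-106 in the controls and 70.7-93.8 in the cKO. Neuronal markers (11 held, 8 under 1 TPM, Vamp2 supplying most) summed to 79.2-88.9 and 72.4-81.7. The labels' extraction text names cortical neurons. The neuronal genes Syt1, Map2 and Mapt were each under 1 TPM on average. Kif1a, Camk2b and Vamp2 of the same list had medians of 4.36, 1.88 and 69.5 TPM over the 8 libraries. No marker held was at 0 in all 8 libraries, and Lyz2, a lysozyme of macrophages, was lower at an unadjusted limma p of 0.0182 (log2 difference -0.26). The part of myeloid and neuronal markers in any result was not tested.

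Some genes had single libraries at a level far from the rest, and these were picked after their values were seen. Of 2002 genes with a mean of at least 5 TPM, 8 had a 3-fold or larger gap in TPM + 1 between neighbouring libraries, and all 8 overlap another row, as do 955 of the 2002 genes (47.7%). Tcea1, an elongation factor, stood at 57.0 TPM in cKO replicate 4 and between 11.03 and 13.9 TPM in the other 7 libraries. Nme7 stood at 1.44 TPM in cKO replicate 1 and at 10.8-13.4 TPM in the others. Acyp2 stood at 0.402 TPM in control replicate 3 and at 0.342 TPM in cKO replicate 3, with 10.8-14.3 TPM in the others. Stxbp4 stood at 1.02 TPM in control replicate 4 and at 0.98 TPM in cKO replicate 4, with 8.62 to 11.02 TPM in the others. The remaining 4 were LOC115487645, Snord47 and LOC115487640, which overlap Gas5 and were near 1 TPM or below in controls 2 and 4, and Fabp3-ps1, which was near 0 in controls 3 and 4 and cKO 1.

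Pttg1, securin, which inhibits the protease separase until anaphase, had the lowest log2 difference of all genes tested, -1.14, and was not called (limma adjusted p = 0.703). It stood at 47.3, 47.9, 53.6 and 47.9 TPM in the controls and at 16.9, 50.2, 18.6 and 13.9 TPM in the cKO. Replicate 2 of the cKO lies with the controls. Without it the limma adjusted p was 7.22e-05, and Pttg1 was called in only this 1 of 21 alternatives. The library left out there is the cKO value that lies apart from the rest, so the small p follows from its removal. In the exon 2-3 line cKO replicate 4 stood at 20.4 TPM and the other 7 libraries between 54.9 and 60.3 TPM.

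**Figure D4:**
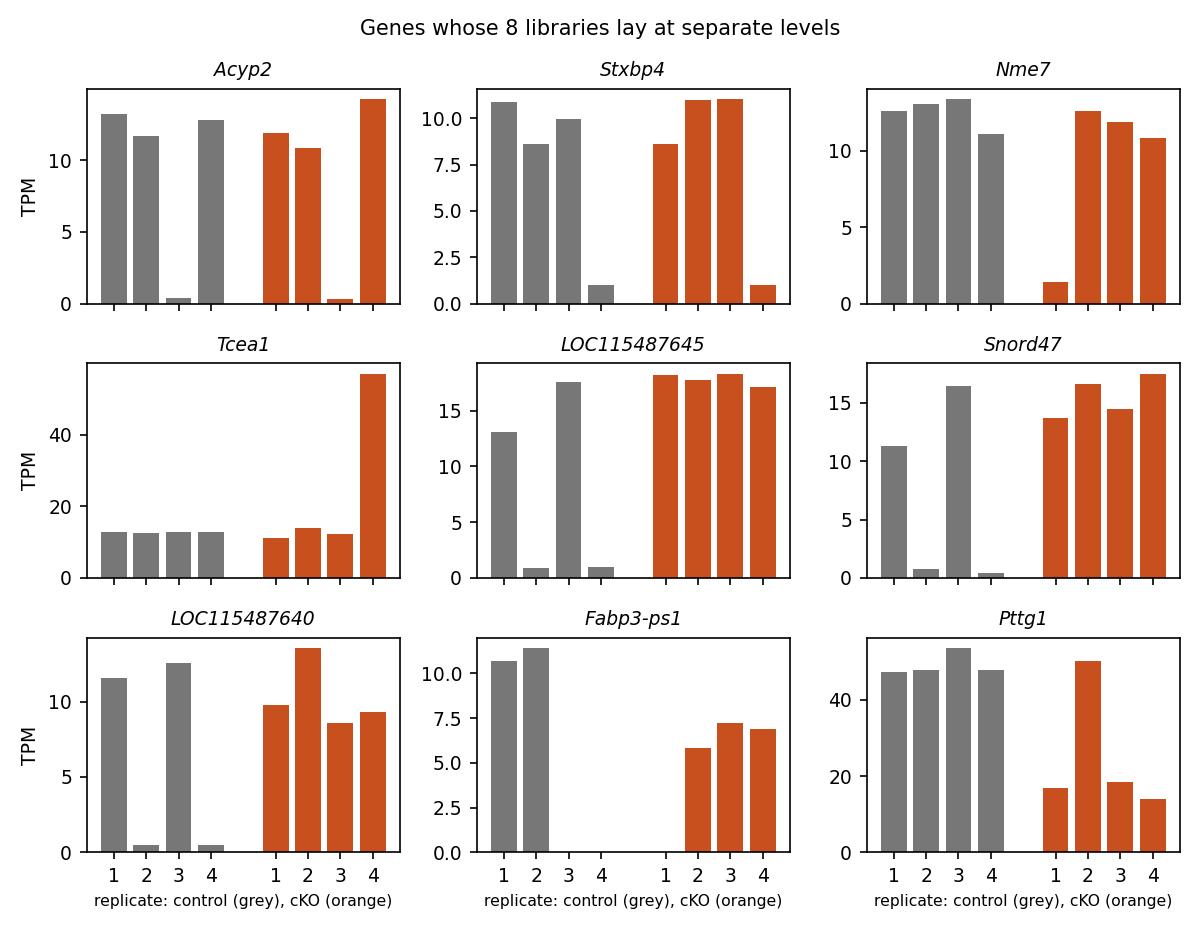
TPM (vertical axis, from 0) of the 8 genes with a gap between libraries and of Pttg1, 1 bar per library, controls in grey and cKO in orange. Acyp2 and Stxbp4 have 1 low library in each group, Tcea1 has 1 high cKO library, and Pttg1 is low in 3 of 4 cKO libraries.

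The effect in the exon 2 line was set beside that in the exon 2-3 line. The difference of the effects (exon 2 minus exon 2-3) was called by limma for 62 of 2620 genes (2.37%), while in the exon 2-3 line itself 176 genes were called (6.72%). The count of 62 was 133 under quantile normalisation, 127 after median centring and 136 with array weights. It was 36 without exon 2 cKO replicate 2, 37 without exon 2 control replicate 4, 38 without exon 2 cKO replicate 4 and 41 without exon 2-3 cKO replicate 3. Batch and line cannot be told apart here. Aldh1l2 differed between the lines by 1.33 (SE 0.09, limma adjusted p = 1.82e-07), as its exon 2-3 effect was -0.51. Shmt2 differed by 0.83 (SE 0.12, adjusted p = 0.000613), with an exon 2-3 effect of -0.20. Stc2 differed by 0.74 (adjusted p = 0.0192), and its exon 2-3 effect was -0.09, a call that was lost without exon 2 cKO replicate 2. Ddit4 had an exon 2-3 effect of 0.60 and an exon 2 effect of 0.06, and their difference of -0.54 was not called (limma adjusted p = 0.0897), though it was in 6 of 20 alternatives, quantile normalisation, median centring and array weights among them. Over the 15 ATF4 targets the median in the exon 2-3 line was -0.05, with 5 higher.

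**Figure D5:**
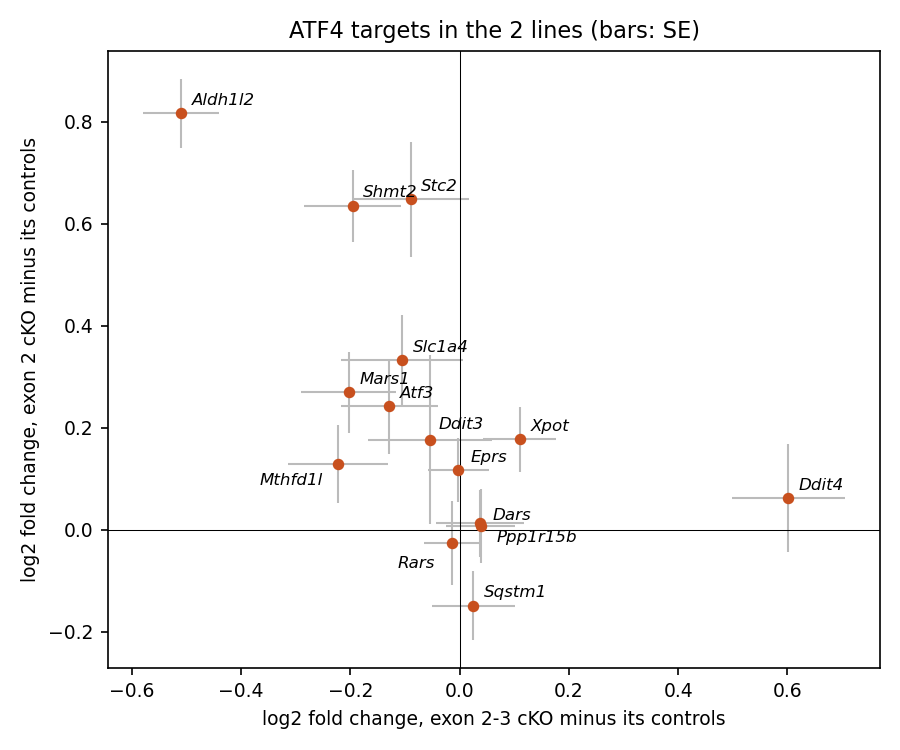
Log2 difference of cKO minus control for the 15 ATF4 targets in the exon 2 line (vertical axis) and in the exon 2-3 line (horizontal axis), 1 point per gene with bars of 1 standard error. Aldh1l2, Shmt2 and Stc2 lie at the top left, with exon 2 values of 0.64 to 0.82 and exon 2-3 values of -0.51 to -0.09, and Ddit4 lies at the far right.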

How the data were processed

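RNA-seq libraries of mouse embryonic ventricles were used, and 8 of the 16 libraries of the series, 4 control and 4 cKO of the exon 2 line, were compared. Groups and replicate numbers were taken from the titles. The authors deposited 1 table of TPM values, and the program behind them is not given in the sources used here. Per the submitters' processing notes, GRCm38, FastQC, Trim Galore 0.6.7, HISAT2 2.2.1, StringTie 2.2.1, featureCounts and DESeq2 were named, with no role. Per the labels' protocols, the texts on library preparation and sequencer differ, and the extraction text names cultured cortical neurons while the tissue is ventricle. The part of the table held had 5921 usable rows, 1 cut line was left out, and 5919 rows equalled RefSeq GRCm38.p6 coordinates.

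From the TPM, log2(TPM + 1) was computed, which understates the change of low genes. Genes with a mean of at least 1 TPM over the 16 libraries were fitted in limma 3.58.1 (R 4.3.3; lmFit, eBayes with trend) on the 8 libraries, with Benjamini-Hochberg adjustment over 2620 genes and a threshold of 0.05. Tests were two-sided. The difference between the lines came from a group means model over 16 libraries. The difference that a gene needs to be called was computed from its moderated standard error, at the cut-off that holds with 2 genes called. The rule for named genes took every called gene, the 10 highest and 10 lowest moderated statistics, all tested ATF4 targets and folate enzymes, from each other list the 2 smallest p-values and the highest level, rows overlapping a called gene, and the 10 highest levels. Further genes were picked once their values had been looked at. The members and lists were chosen with earlier results of these data known. Alternatives were pseudocounts, filters, scalings, other limma settings, a replicate block and leaving out each library. The 18 lists are of ATF4 targets, folate enzymes, tRNA synthetases, ER stress, p53, cell cycle, sarcomere, calcium, cardiac factors, ribosome, respiratory chain, glycolysis and 6 cell types. The fit was tested on simulated data. Python 3.11.15 with pandas 2.3.3, SciPy 1.17.1 and matplotlib 3.10.9 made tables and figures. Single values of a few marker genes are not reported here.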

Additional observations from a re-analysis of the deposited data

Results flagged for a closer look

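A library stood apart from the other 3 of its group for 11 of 171 groups of 4 tested. Of these, 5 belong to genes picked because libraries stood apart (Pttg1, Tcea1, Nme7 and Acyp2), to which no chance rate applies. Among the other genes 6 of 151 groups were marked, where chance marks about 1 in 20. By Dixon's criterion these 6 were Ppp1r1b at 11.9 TPM and Ramp2 at 178 TPM in cKO replicate 3, and Ppp1r15b at 31.2 TPM in control replicate 2. The rest of the 6 were Tnni1 at 2265 TPM and Pgam2 at 448 TPM in cKO replicate 2, and Gm10222 at 5838 TPM in cKO replicate 1. The 5 of the picked genes were Pttg1 at 53.6 TPM in control replicate 3 and at 50.2 TPM in cKO replicate 2. With them were Tcea1 at 57.0 TPM in cKO replicate 4, Nme7 at 1.44 TPM in cKO replicate 1 and Acyp2 at 0.402 TPM in control replicate 3.

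The effect differed between the exon 2 and exon 2-3 lines (exon 2 minus exon 2-3, log2 scale, limma interaction term with an adjusted p under 0.05, line and batch not told apart) for Aldh1l2 by 1.33, Shmt2 by 0.83, 2900009J06Rik by 1.38, Stc2 by 0.74, Casq1 by 0.50 and Hand1 by 0.52. It was negative for Rnasek (-0.39), Perp (-0.69), Ccng1 (-1.46), Fn1 (-0.65), Krt19 (-0.56) and Vamp2 (-0.39). Of 20 alternatives, the call was lost in 16 for Rnasek, in 12 each for Hand1 and Vamp2, in 2 each for Casq1 and Krt19 and in 1 for Stc2, and in none for the other 6. Ccng1 is a p53 target and Fn1 encodes fibronectin.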

How the results depend on the processing

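In each of the 21 alternatives run Aldh1l2 and Shmt2 were called in the exon 2 line. The number of genes called moved from 2 to 4 in one fit over all 16 libraries, and leaving out each library in turn gave 2 to 4, with 4 without control replicate 3, where Stc2 and Dedd were added. The number of genes whose effect differed between the lines, 62, moved to 133 with quantile normalisation, 127 with median centring and 136 with array weights, and leaving out each library gave 36 to 84, the lowest being 36 without exon 2 cKO replicate 2, 37 without exon 2 control replicate 4, 38 without exon 2 cKO replicate 4 and 41 without exon 2-3 cKO replicate 3. The cause was not tested. With the replicate number as a block, 2 genes were called, the same 2, with 113 instead of 84 at an unadjusted p under 0.05, and 68 differed between the lines. Whether the replicate numbers pair the samples was not tested. Deviations of same-numbered libraries correlated at 0.0982, 0.166, 0.200 and 0.0639. Those of libraries with different numbers correlated at between -0.117 and 0.0792. Control replicates 1, 2 and 3 each correlated most with the cKO library of their own number, and control replicate 4 correlated more with cKO replicate 1, at 0.0792. The exon 2 line gained no further call, apart from LOC115487898 with no filter (control 0.134 to 0.164 TPM, cKO listed at 0), Casq1 under 4 alternatives and Pttg1 without cKO replicate 2. Of the single genes' differences, 1733 stayed close to the main value, 14 moved by over 1 standard error without a call and 8 gained a call. Of the differences between the lines for 25 genes, 434 values kept their side of the threshold, 45 lost a call and 21 gained one. Of the list medians, 375 stayed and 3 moved. TPM keeps no depth, so how depth limits a value is unknown.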
